A study of Mus musculus with 2 samples.

Results

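Of 37725 ATAC-seq peaks called in macrophages given R848, 1221 were strong, overlapped an untreated peak, had a fold less than 2 times that of the untreated peak, and lay away from the ends of protein-coding genes. These stable distal peaks were chosen by measured values and by position on chromosomes 1 to 19. Each had a −log10 q of at least 5, overlapped an untreated peak by at least 1 bp, lay more than 1 kb from every protein-coding gene end, and had its summit within 100 kb of such an end. The fold of the R848 peak over that of the untreated peak was below 2, with no lower bound; where several untreated peaks overlapped, the largest fold was used. The fold is the authors' value, the height of a peak's summit divided by the local background in its own library, with 1 added to each. Because overlap, q and fold chose the peaks, those values are given below as a description and were not tested.

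ATAC-seq maps open chromatin by letting the Tn5 transposase insert adapters wherever DNA is accessible. Distal open sites include enhancers, insulators bound by CTCF and starts of non-coding RNAs, and an enhancer can lie far from the gene that it acts on. In macrophages, lineage factors such as PU.1 and C/EBP are known to open many enhancers before any stimulus, and signals from Toll-like receptors then act largely on sites that are already open. R848 (resiquimod) is a synthetic ligand of TLR7 in mice.

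The study compared wild-type mouse bone marrow-derived macrophages (BMDMs) after 2 h with R848 at 100 ng/ml and macrophages left untreated, with 1 library each. Both cultures had been grown from marrow cells with M-CSF at 20 ng/ml. The sources used here give no strain, age, sex or number of animals behind each library. With 1 library per condition no difference between conditions has a replicate check, and no p-value is given. Intervals are 95% intervals that cover counting error only.

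The R848 list held 37725 peaks and the untreated list 77060, called separately. A peak's height could be solved in whole tags, with a median of 8 tags in the R848 list and 7 in the untreated list. The genome-wide background was 1.36 tags in the R848 library and 0.968 in the untreated library, a ratio of 1.40. The median fold ratio of all 11214 shared autosomal peaks was 1.08, and these were 30.5% of the 36721 autosomal R848 peaks. Of 11 macrophage markers, 7 in the R848 list and 4 in the untreated list had a peak within 1 kb of a gene end. Cd14, Mertk, Fcgr1 and Msr1 had none in either list. The same counts were 8 and 4 of 17 neutrophil markers, 7 and 4 of 16 dendritic cell markers, 4 and 2 of 23 for T and NK cells, 2 and 2 of 17 for B cells, 3 and 3 of 17 for erythroid and megakaryocytic cells, and 1 and 2 of 20 for stromal and endothelial cells. No share over all protein-coding genes is given for either list, so these counts are no check of cell identity.

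Among 2056 strong distal R848 peaks within reach of a gene, 1364 overlapped an untreated peak, which is 66.3%. That share is fixed in part by the rule and is given as background only. At gene ends 86.1% of 3685 strong peaks did so. Of the 1364 shared distal peaks, 143 (10.5%) had a fold ratio of 2 or more and were left out, and the other 1221 are the peaks described here. They are set below beside those 143 raised distal peaks, beside 692 strong distal peaks found in the R848 list but not in the untreated one (R848-only), and beside 2825 peaks at gene ends with a ratio below 2.

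Many of the peaks that the rule calls distal lay on an annotated start of transcription. RefSeq start windows (250 bases before to 50 after each annotated start, for coding and long non-coding genes) were overlapped by 256 of the 1221 stable distal peaks, or 21.0% (Wilson interval 18.8 to 23.3%). The rule measured distance to the outermost ends of each protein-coding gene, so a start inside the gene's extent, or a start of a non-coding gene, did not count as a gene end. Of the 256, 206 peaks (16.9% of all) lay on a start window of a protein-coding gene and 50 (4.10%) only on a window of another gene. Between genes and off any window were 490 peaks (40.1%), and inside genes and off any window 475 (38.9%). The word distal therefore holds for the outer ends of genes and not for all starts.

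The start windows under 6 of these peaks are printed as examples. Windows are printed 5′ to 3′ along the gene's strand, from RefSeq (GRCm38.p6), with every CG pair in capitals. Add3 encodes an adducin of the membrane skeleton, Stag1 a cohesin subunit and Arntl the clock factor BMAL1. Chaserr is a non-coding RNA beside Chd2 that is known in mice to repress Chd2, Snhg5 hosts small nucleolar RNAs, and Mir22hg is the host transcript of miR-22. The 6 were chosen after their values were seen, the coding ones from those with the highest R848 fold. They lie at chr19:53142506-53142805 (Add3, plus strand), chr9:100643198-100643497 (Stag1, plus), chr7:113207215-113207514 (Arntl, plus), chr7:73558346-73558645 (Chaserr, minus), chr11:75461289-75461588 (Mir22hg, plus) and chr9:88522848-88523147 (Snhg5, minus).
Add3: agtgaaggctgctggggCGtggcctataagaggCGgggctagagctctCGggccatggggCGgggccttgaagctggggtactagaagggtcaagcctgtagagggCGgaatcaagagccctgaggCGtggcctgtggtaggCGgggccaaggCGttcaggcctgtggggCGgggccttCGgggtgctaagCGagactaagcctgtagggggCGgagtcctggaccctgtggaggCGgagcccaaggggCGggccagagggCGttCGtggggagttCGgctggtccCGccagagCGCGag
Stag1: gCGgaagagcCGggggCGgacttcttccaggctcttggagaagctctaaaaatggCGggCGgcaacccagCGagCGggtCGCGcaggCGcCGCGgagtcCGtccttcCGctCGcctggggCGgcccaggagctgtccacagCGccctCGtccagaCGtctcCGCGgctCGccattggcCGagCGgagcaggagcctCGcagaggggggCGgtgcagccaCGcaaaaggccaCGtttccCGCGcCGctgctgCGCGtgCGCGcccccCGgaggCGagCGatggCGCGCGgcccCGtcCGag
Arntl: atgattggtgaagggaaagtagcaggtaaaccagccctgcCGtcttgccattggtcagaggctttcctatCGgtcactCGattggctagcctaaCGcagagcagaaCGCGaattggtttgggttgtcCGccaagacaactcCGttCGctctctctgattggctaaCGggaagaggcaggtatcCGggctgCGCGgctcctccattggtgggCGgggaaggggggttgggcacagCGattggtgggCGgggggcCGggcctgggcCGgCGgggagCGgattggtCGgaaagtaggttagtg
Chaserr: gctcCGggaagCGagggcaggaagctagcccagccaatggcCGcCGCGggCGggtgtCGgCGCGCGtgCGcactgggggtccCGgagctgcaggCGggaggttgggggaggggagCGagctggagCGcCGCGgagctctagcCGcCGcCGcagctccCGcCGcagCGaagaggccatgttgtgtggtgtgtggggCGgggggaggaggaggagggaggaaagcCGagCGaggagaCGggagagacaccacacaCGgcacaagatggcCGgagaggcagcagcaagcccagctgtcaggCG
Mir22hg: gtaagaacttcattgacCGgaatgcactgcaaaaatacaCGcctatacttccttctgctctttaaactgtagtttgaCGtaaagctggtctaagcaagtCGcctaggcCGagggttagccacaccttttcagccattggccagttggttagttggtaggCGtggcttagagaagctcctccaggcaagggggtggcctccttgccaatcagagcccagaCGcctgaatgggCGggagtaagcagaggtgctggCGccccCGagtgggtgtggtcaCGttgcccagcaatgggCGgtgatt
Snhg5: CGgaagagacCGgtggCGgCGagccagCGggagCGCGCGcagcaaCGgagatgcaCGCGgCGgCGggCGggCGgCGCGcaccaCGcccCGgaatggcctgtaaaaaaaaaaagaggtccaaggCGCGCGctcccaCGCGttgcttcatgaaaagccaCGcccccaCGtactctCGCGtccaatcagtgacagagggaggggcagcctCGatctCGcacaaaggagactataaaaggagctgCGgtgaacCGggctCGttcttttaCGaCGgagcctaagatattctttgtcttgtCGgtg

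The 6 windows ran from CG-dense to moderate. Stag1 held 43 CG pairs in 300 bases, Snhg5 36, Chaserr 30, Arntl 21, Add3 20 and Mir22hg 12. The peak on the Add3 window had a fold of 15.5 (50 tags) in the R848 list, against 10.3 (20 tags) in the untreated list, a ratio of 1.5 with a counting interval of 0.904 to 2.74. Stag1 had 13.0 (49 tags) after R848 and 8.88 (18 tags) untreated. The Arntl peak had 12 (38 tags) after R848 and 6.60 (12 tags) untreated, a ratio of 1.81. The counting intervals of these 3 ratios all held 1, and all reached past 2. Chaserr had the one ratio below 1 among the 6, with 11.6 (38 tags) after R848 and 12.7 (26 tags) untreated, a ratio of 0.911 with an interval of 0.545 to 1.58. Snhg5 had 8.29 (29 tags) after R848 and 4.66 (10 tags) untreated. On Mir22hg the folds were 8.33 (34 tags) after R848 and 7.58 (19 tags) untreated.

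Most windows under stable distal peaks were CG-dense. The median GC content of the window nearest the summit, over the 256 peaks, was 64.0%, with a median of 25 CG pairs, and 80.5% had an observed-to-expected CG ratio above 0.6 together with GC over 50%. Over all 31396 start windows on chromosomes 1 to 19 the medians were 53.0% and 7 CG pairs, and 33.9% passed the same bound. Windows under the 206 coding peaks passed in 85.9% and those under the other 50 in 58.0%. Windows under peaks at gene ends had a median of 64.0% GC and 25 CG pairs too, with 87.7% passing. Windows under the 53 R848-only distal peaks that had one passed in 62.3%, with medians of 58.0% and 18 CG pairs. Those under the 39 raised distal peaks that had one passed in 66.7%, with medians of 61.3% and 22 CG pairs.

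Short motifs were searched on both strands of these windows, with N for any base. The SP/KLF word GGGGCGGGG was in 28.9% of windows under stable distal peaks, 24.5% under R848-only peaks, 31.9% under gene-end peaks and 11.6% of all windows. The CTCF core AGGGGGC was in 17.6%, against 15.1%, 19.5% and 10.7% in the same order. NRF1's GCGCATGCG was in 5.08%, 5.66%, 6.11% and 1.74%. The NF-kB word GGGNNTTCC was in 8.20% under stable distal peaks, 1.89% (1 window) under R848-only peaks, 8.22% under gene-end peaks and 5.91% of all windows. The IRF word GAAANNGAA was in 4.69% under stable distal peaks, 15.1% under R848-only peaks, 5.58% under gene-end peaks and 8.52% of all windows. In the same order, AP-1's TGANTCA was in 5.47%, 7.55%, 3.73% and 7.84%, C/EBP's TTGCNNAA in 10.9%, 11.3%, 6.68% and 10.9%, and the PU.1/ETS word GAGGAAGT in 3.91%, 5.66%, 3.16% and 3.25%. For RUNX's TGTGGTT the shares were 1.56%, 1.89%, 2.99% and 5.32%, and for MEF2's CTANNNATA 4.30%, 5.66%, 2.72% and 7.16%. The TFE/MITF E-box TCACGTGA was in 1.17%, 3.77%, 2.90% and 0.949%. Under raised distal peaks the SP/KLF word was in 15.4%, the CTCF core in 23.1%, and the NRF1, NF-kB and IRF words in 5.13%, 5.13% and 7.69%. The R848-only share rests on 53 windows and the raised share on 39. Words may overlap each other, a match is not a bound site, and the 965 stable distal peaks off any window were not scanned, because no genome sequence was used here.

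The share on a start window differed between kinds of distal peak, and the rule did not use it. It was 21.0% in stable distal peaks, 27.3% (20.6 to 35.1%) in raised distal peaks and 7.66% (5.90 to 9.88%) in R848-only distal peaks. Over all strengths, the interval of the stable peaks overlapped that of the raised peaks and lay above that of the R848-only peaks. At a −log10 q of 5 to 10 the shares were 17.8%, 21.3% and 7.97%, and at 10 to 20 they were 29.8%, 25.3% and 6.12%. At 20 or more they were 17.6% (13.0 to 23.5%) of 204 stable peaks and 47.6% (28.3 to 67.6%) of 21 raised peaks. Among R848-only peaks it was 0 of 4, which allows up to 49.0%. A local background over 5 times the genome-wide one in both libraries marked 61 stable peaks and 0 of 143 raised peaks. The 61 had a median −log10 q of 42.2, and 2 of them lay on a start window. The bands were set after the data were seen and were not recounted without the 61, so stable and raised peaks are not ranked in the top band. The peaks of one library are not replicates, so the intervals speak of these lists only.

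**Figure D1:**
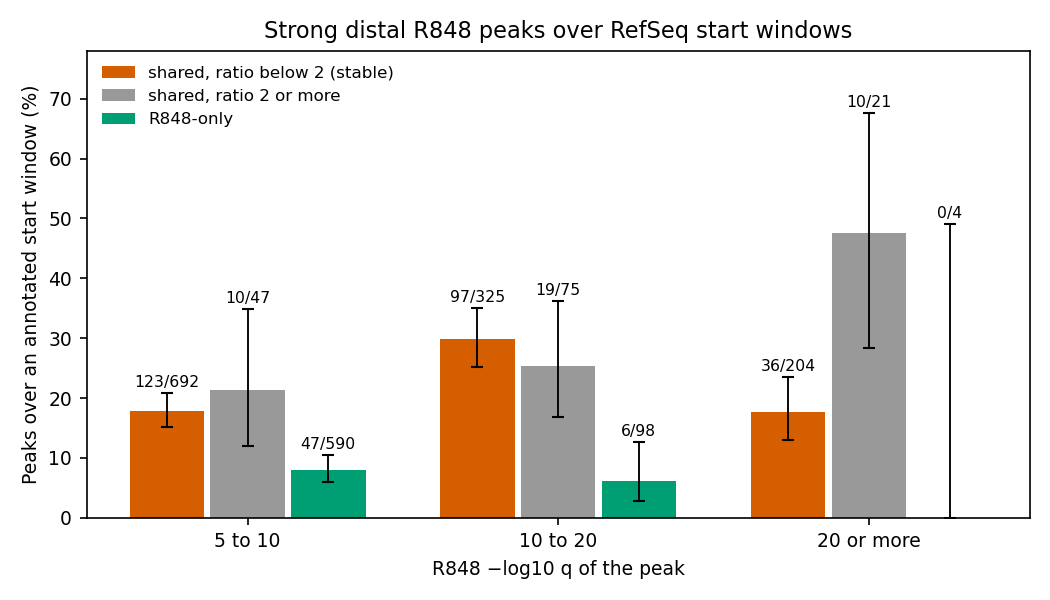
Share of strong distal R848 peaks that overlap a RefSeq start window (vertical axis, percent), by −log10 q of the peak (horizontal axis) and by kind of peak, with 95% Wilson intervals and the counts above each bar. Stable peaks stood at 17.8%, 29.8% and 17.6% in the 3 bands, with raised peaks at 21.3%, 25.3% and 47.6% and R848-only peaks at 7.97%, 6.12% and 0%.

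The start of the non-coding gene 1700028E10Rik had a fold of 15.1 (68 tags) after R848 and 10.8 (24 tags) untreated, with summits 2 bp apart. The start of Dancr, a non-coding RNA known from work on cell differentiation, had 8.82 (23 tags) after R848 and 7.14 (14 tags) untreated. Internal starts of coding genes included those of Ipo5, a nuclear import receptor, with 13.0 (53 tags) after R848 and 8.64 (16 tags) untreated. Map4, a microtubule-associated protein, had 11.9 (39 tags) after R848 and 6.86 (13 tags) untreated. In all, 278 genes had a start window under a stable distal peak, 206 of them protein-coding and 71 long non-coding. The summit lay within the window in 185 of 256 peaks, at a median of 100.5 bp from the annotated start.

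The fold of the stable distal peaks ran over a wide range. In the R848 list it had a median of 6.63 (1.98 to 46.2) and in the untreated list a median of 5.31 (1.83 to 45.5). The heights were 18 tags (12 to 7050) after R848 and 11 tags (4 to 7926) in untreated cells. The ratio had a median of 1.25, its middle 50% ran from 0.964 to 1.55, and it was below 1 in 342 peaks (28.0%). Of the untreated partners, 582 (47.7%) also had a −log10 q of at least 5, while 45 had a q above 0.05.

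A ratio below 2 is a bound on an estimate and not a sign that a peak stayed the same. Given the tags, the counting interval of the ratio lay below 2 in 337 peaks and reached 2 or more in 884. It lay wholly above 1 in 7 peaks and wholly below 1 in 73, but the rule sets that balance by removing ratios of 2 or more. Of the 143 raised distal peaks so removed, 62 had an interval wholly above 1. Over all shared autosomal peaks, of any strength, the median ratio was 1.08.

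**Figure D2:**
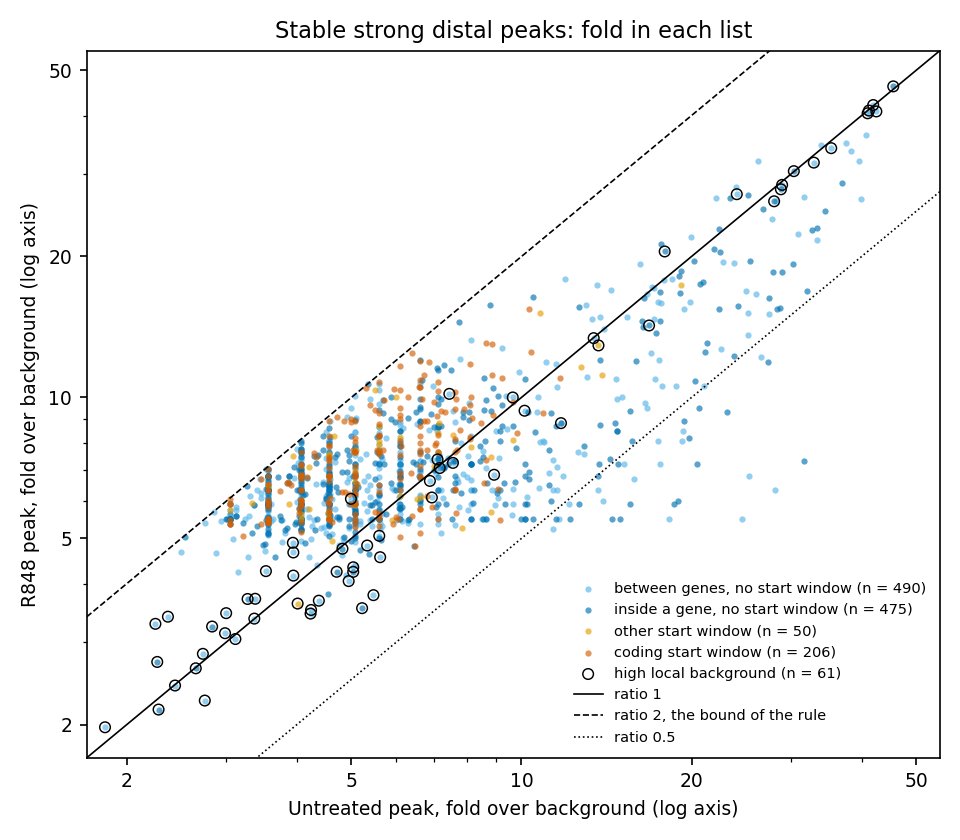
Fold over background of each of the 1221 stable distal peaks in the R848 list (vertical, log axis) and of its untreated partner (horizontal, log axis), coloured by position, with lines at ratios of 2, 1 and 0.5; rings mark the 61 peaks of high local background. Peaks on start windows sit at folds under 20. Of the 71 peaks with an untreated fold of 20 or more, 60 lie below the line of ratio 1, but picking peaks by that fold itself lowers the ratio. Picked by an R848 fold of 20 or more, 25 of 39 lie below it.

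Because the rule has no lower bound, the stable class holds peaks whose R848 fold was far below the untreated one; these are described with no test, having been picked by their ratio. Near Olfr854, an olfactory receptor gene, the fold was 5.51 (12 tags) after R848 and 24.6 (59 tags) untreated, a ratio of 0.224. Near Pla2r1, a phospholipase A2 receptor, the ratio was 0.226, and inside Dpp9, a dipeptidyl peptidase, it was 0.231. The 73 peaks with a counting interval wholly below 1 had a median fold of 8.90 after R848 and 19.8 in untreated cells. None lay on a start window, and none was assigned to a gene of the lists below. Both were rare among all 120 stable distal peaks with an untreated fold of 15 or more, at 1 and 2 peaks. Among the 1101 below that fold they were 255 and 52. The R848 and untreated widths of the 73 had medians of 360 and 381 bp, and their summits lay a median of 9 bp apart. In 33 stable distal peaks the ratio was below 0.5. With 1 library each these values have no replicate check.

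Peaks of the highest fold were seldom on start windows and had summits close together in both lists. The 120 peaks with an untreated fold of 15 or more included 1 on a start window (0.833%), against 255 of 1101 below that fold (23.2%). Their median width was 386.5 bp after R848 and 414.5 bp in untreated cells, against 485 and 383 bp in the rest, and the summits of the 2 lists lay a median of 9.5 bp apart, against 59 bp in the rest. Their median height was 51.5 tags after R848 and 77 tags untreated. Of the 120, 14 had a high local background. Grouped by R848 fold, summits lay 63 bp apart at a fold of 5 to 7, 51 bp at 7 to 10, 35.5 bp at 10 to 15, 14.5 bp at 15 to 20 and 5 bp at 20 or more. Start windows made up 19.1%, 28.7%, 32.2%, 6.82% and 0% of these bands.

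**Figure D3:**
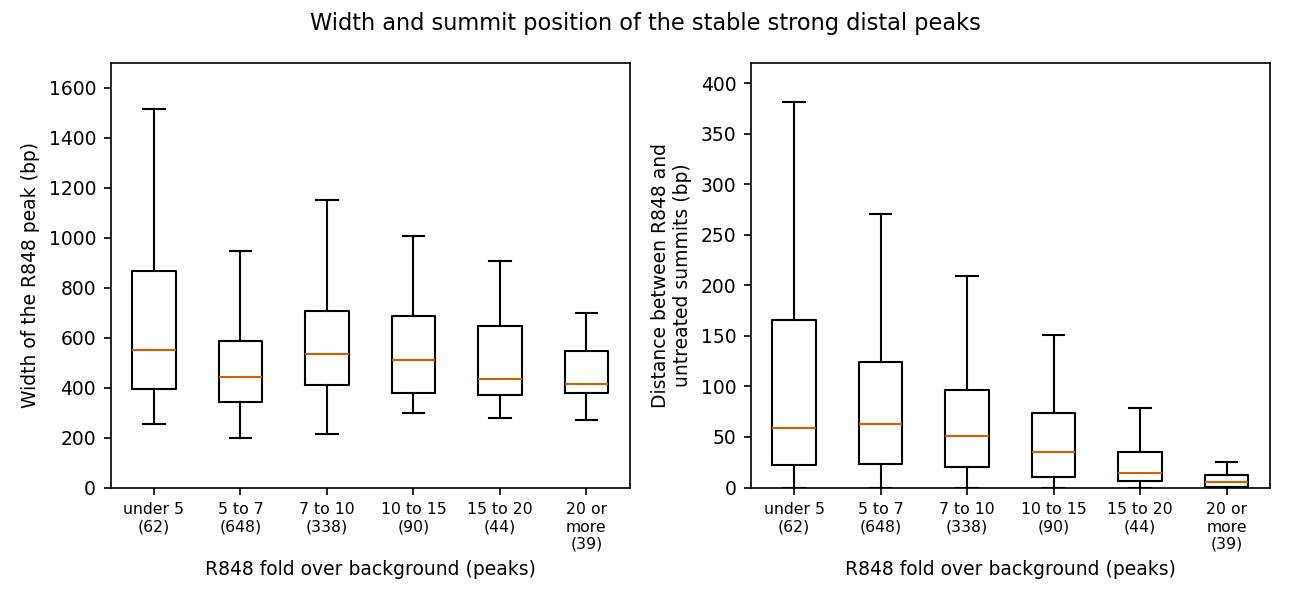
Width of the R848 peak (left, bp) and distance between the R848 and untreated summits (right, bp) of the stable distal peaks, by R848 fold with the number of peaks in brackets; boxes show the middle 50% with the median line, whiskers reach 1.5 box lengths and farther points are not drawn. Median summit distance was 63 bp at a fold of 5 to 7 and 5 bp at 20 or more, while median width stayed between 414 and 549.5 bp.

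Chl1, a neural cell adhesion gene, held the peak of highest fold, inside the gene, with 46.2 (3777 tags) after R848 and 45.5 (3056 tags) untreated. B230307C23Rik had 42.1 and 41.9, Tmem196 had 41.0 and 41.2, Tcstv3 had 40.8 and 42.5, and Rpusd4 had 40.4 (7050 tags) and 41.0 (7926 tags), in each case after R848 and untreated. These 5, and Gm45871 with 34.1 and 35.3, lay on a high local background. Outside such regions the highest folds were near Adgre5, an adhesion receptor of leukocytes, with 36.4 (231 tags) after R848 and 40.7 (386 tags) untreated. Gng4, a G protein subunit, had 35.0 and 37.5, Dpy19l2 had 34.6 and 33.9, Gm9631 had 33.6 and 38.3, and Rfc3, a DNA replication factor, had 31.9 and 39.6. Abcb11, the bile salt export pump of hepatocytes, had 32.0 after R848 and 26.2 untreated. None of these 12 peaks lay on a start window, and assignment to the nearest gene end does not show that a site acts on that gene.

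A local background over 5 times the genome-wide one in both libraries marked 61 of the 1221 peaks (5.00%). It marked 0 of 143 raised peaks (up to 2.62%) and 9 of 2825 stable gene-end peaks. Their ratio had a median of 0.986 (0.679 to 1.46), and their heights a median of 129 tags after R848 and 161 tags untreated. The sources used here do not say how multiply mapped reads were handled. Their part in the results was not tested; without them 1160 peaks remained and the share on a start window was 21.9%.

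The required overlap of the peaks already bounds how far apart their summits can lie, so summit distances are a description. The R848 and untreated summits lay a median of 52 bp apart, with the middle 50% from 18 to 109 bp. In 883 peaks (72.3%) the distance was at most 100 bp, and in 93.9% the R848 summit fell inside the untreated peak. The median distance was 65 bp in raised distal peaks and 55 bp in stable gene-end peaks. The R848 peaks were wider, with a median of 476 bp against 390 bp for the untreated partners, and gene-end peaks were wider still at 586 bp.

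Summits of 688 stable distal peaks (56.3%, 53.5 to 59.1%) lay inside a protein-coding gene, against 51.7% of raised and 52.0% of R848-only distal peaks. The median distance to the nearest gene end was 12677 bp in stable peaks, 12922 bp in raised peaks and 15305 bp in R848-only peaks. No other R848 peak lay within 10 kb of 685 stable peaks (56.1%), against 55.2% of raised, 50.7% of R848-only and 67.3% of stable gene-end peaks. By chromosome, stable distal peaks made up 16.2% (chromosome 15) to 23.8% (chromosome 6) of the strong peaks.

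The 1221 peaks were assigned by nearest gene end to 1099 of 20661 autosomal protein-coding genes, or 5.32%, and the median number per gene was 0. The genes with most were Gm40363 with 7 and 9230019H11Rik with 6, all of high local background. Tex14, a gene of germ cell division, had 5 peaks inside the gene. Their folds were 5.15, 8.64, 7.55, 7.19 and 8.67 after R848, against 5.08, 7.11, 7.14, 8.13 and 7.0 in untreated cells, at ratios of 0.885 to 1.24. Gm40035, Gm15319, Vmn1r2, Pisd and Sfi1 had 4 each, with 3 of high background at Gm15319 and at Sfi1. Chd2, a chromatin remodeller, had 3 peaks, 1 of them the Chaserr start printed above, with folds of 12, 11.6 and 7.37 after R848 and 6.60, 12.7 and 5.17 untreated. Tusc3 had 3 peaks inside the gene, with 5.93, 6.28 and 11.9 after R848 against 4.06, 4.74 and 16 untreated, and Ccnl1, a cyclin of RNA splicing, had 6.8, 7.40 and 8.74 against 3.56, 4.57 and 6.10.

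Along the chromosome, 116 peaks (9.50%) lay in 49 stretches whose neighbours were at most 11387 bp apart. Of the 8 stretches with 3 or more, 3 were free of high background. The longest runs were 9 peaks at Gm40363 and Pdia4 (chr6:47739905-47778358), 8 of them of high background, and 6 at 9230019H11Rik (chr10:3109506-3117056), all of high background. Gm40035 had 4 (chr2:181917312-181931111), with folds of 6.21 to 8.28 after R848 and 4.57 to 8.57 untreated. Mnt, which encodes a repressor of MYC target genes, had 3 in 6860 bp, with folds of 5.56 to 6.07 after R848 and 4.51 to 5.08 untreated. Pisd had 3 in 12717 bp.

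Of 34 macrophage identity genes, 3 had a stable distal peak (8.82%, beside 5.32% of all genes). The list had 13 strong distal peaks, of which 6 (46.2%) were stable, beside 59.4% over all genes. Csf2ra, the alpha chain of the GM-CSF receptor, had 3, with folds of 17.9 (68 tags), 4.98 and 7.11 after R848, against 11.9 (31 tags), 3.08 and 7.24 in untreated cells. Cebpb, a C/EBP factor of inflammatory macrophages, had 2, at 69463 and 84647 bp from the gene, with 6.90 and 7.56 after R848 and 4.57 and 5.31 untreated, beside 2 raised distal peaks. Fcgr3, an IgG receptor, had 1 with 5.22 after R848 and 3.81 untreated. Spi1 (PU.1), Csf1r (the M-CSF receptor), Cebpa, Irf8 and Runx1 had none. Spi1 had 1 strong R848-only distal peak, and Cebpa had 1 stable peak at a gene end.

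Genes of the NF-kB pathway and its feedback had 9 of their 11 strong distal peaks in the stable class (81.8%, beside 59.4% over all genes). They lay at 5 of 22 genes, 21 of them on chromosomes 1 to 19 (22.7%). The share was 5.32% of all genes, 17.9% of cytoskeleton and adhesion genes and 18.8% of dendritic cell markers. Tnfaip3, the ubiquitin-editing brake A20, had 3, with folds of 6.25, 6.8 and 5.51 after R848, against 3.56, 3.56 and 4.57 in untreated cells. The last of these peaks lay on the start window of the non-coding gene Gm51814. Tnip1, the A20 partner ABIN1, had 6.46 and 8.88 after R848 and 4.57 and 6.60 untreated. Bcl3, an IkB protein of the nucleus, had 5.38 and 8.46 after R848 and 2.75 and 7.08 untreated. Nfkb2, which encodes p100, had 5.61 after R848 and 5.59 untreated, on an internal start window. Nfkbiz had 6.88 and 4.57. The 9 ratios ran from 1.00 to 1.96, beside a median of 1.25 and 28.0% below 1 over all stable distal peaks. The rule itself bounds these ratios, the 9 peaks lie near few genes, and neighbouring peaks are not independent. The ratios and shares are thus a description of the list. Nfkbia had none, and 1 stable peak at a gene end.

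The early Toll-like receptor response genes had 7 stable peaks of 14 strong distal ones (50.0%, beside 59.4% over all genes). They lay at 4 of 25 genes (16%, beside 5.32% of all genes and 17.9% of cytoskeleton and adhesion genes). Fos, of AP-1, had folds of 8.55 and 6.42 after R848, against 9.43 and 5.91 in untreated cells. Nr4a1, an early-response nuclear receptor, had 10.7 (28 tags) and 5.59 after R848, against 5.59 (10 tags) and 3.12 untreated. Btg2 had 6.17 and 7.05 against 4.50 and 3.54, and Atf3 had 7.92 against 5.08, after R848 and untreated in each case. The first Fos peak was the one with a ratio below 1 in this list, beside 28.0% of all stable distal peaks. These ratios are bounded by the rule and rest on 7 peaks near 4 genes, so they only describe the list.

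Inflammatory cytokine and mediator genes had 18 strong distal peaks, of which 3 were stable, 1 was raised and 14 were R848-only. Stable peaks were thus 16.7% of them, beside 59.4% over all genes. Acod1, which makes itaconate, had 6.12 and 5.69 after R848 and 6.64 and 4.06 untreated, the first on the start window of the non-coding gene 4933432I03Rik. Osm, encoding oncostatin M, had 5.41 and 4.57. Tnf and Il1b had none, with 2 R848-only distal peaks at Il1b. Ptgs2, the inducible prostaglandin synthase, had none, with 2 R848-only and 1 raised. The 18 peaks lie near few genes and neighbouring peaks are not independent, so the make-up is a description of the list.

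Chemokine genes had 3 stable peaks of 4 strong distal ones, near Ccl2 (5.44 after R848, 3.60 untreated), Ccl3 (6.98 and 6.06) and Cxcl1 (5.51 and 4.06). Both strong distal peaks of the interferon list were stable, among them that near Irf1 (6.79 and 5.34). Lysosome and phagocytosis genes had 4 of 9, among them those at Cd36 (7.08 and 5.08), Tfeb (6.36 and 3.56) and Stab1 (6.36 and 5.08). In the cytoskeleton and adhesion list 6 of 12 were stable, among them Actb with 4.64 and 5.57 after R848 against 5.37 and 3.74 untreated, Itgb1 (8.77 and 6.54) and Itgb2 (5.47 and 3.54). Lipid genes had 3 of 6, led by Insig1, a brake on cholesterol synthesis, with 16 (47 tags) after R848 and 19.8 (51 tags) untreated. Housekeeping genes had 4 of 6, including Ywhaz with 8.99 and 5.88. Values in brackets, and those of Ywhaz, are the fold after R848 and then untreated. Over all genes 59.4% of strong distal peaks were stable. The share was 75% for chemokines, 100% for interferon, 44.4% for lysosome, 50% for cytoskeleton, 50% for lipid and 66.7% for housekeeping genes. Each rests on few peaks.

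Marker genes of other cell types also had such peaks. Dendritic cell markers had 3 of 5 strong distal peaks in the stable class (60%, beside 59.4% over all genes), near Batf3 (5.69 after R848, 8.82 untreated), Xcr1 (7.21 and 4.06) and Cd209a (12.1 and 7.77). The Batf3 peak lay on the start window of the non-coding gene Gm46178. T and NK cell markers had 2, near Il7r (6.35 and 3.56) and Klrb1c (4.62 and 4.81), and stromal and endothelial markers 2, near Kdr (5.51 and 3.56) and Vwf (5.37 and 3.05). Among B cell genes there was 1, at 64559 bp from Cr2, with a fold of 22.0 (118 tags) after R848 and 20.0 (82 tags) untreated. The erythroid list had 1, inside Ank1 (7.21 and 10.2), and the neutrophil list none. In the T and NK, stromal, B cell and erythroid lists these were all of the strong distal peaks, beside 59.4% over all genes. At least 1 stable distal peak was assigned to 3 of 16 dendritic cell markers (18.8%) and 0 of 17 neutrophil markers. The share was 8.82% for the macrophage identity list (3 of 34) and 5.32% for all genes. These counts, that of the macrophage list included, are too small to rank the lists.

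**Figure D4:**
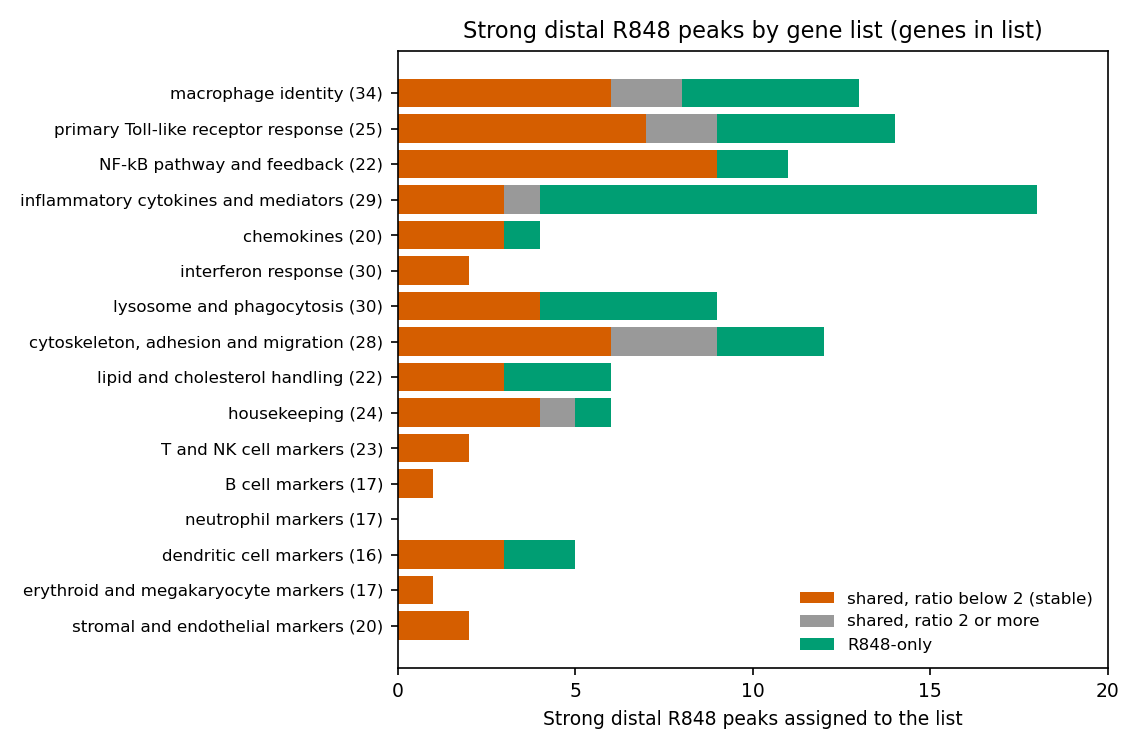
Number of strong distal R848 peaks (horizontal axis) assigned to the genes of each list, split into stable, raised and R848-only peaks; the number of genes is in brackets. The NF-kB list has 9 stable of 11, and the cytokine list 3 stable of 18 with 14 R848-only.

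Few stable distal peaks lay near a microRNA hairpin. Within 5 kb of a hairpin were 13 peaks (1.06%, 0.623 to 1.81%), near 18 of 1005 hairpins, against 1.40% of raised, 0.434% of R848-only and 1.91% of stable gene-end peaks. The mature sequences of 4 such loci are shown, 5′ to 3′ from RefSeq, with the seed (bases 2 to 8) in capitals, since the seed sets which messages a miRNA binds. The 4 loci were chosen after the values were seen, for miRNAs that are well known. Away from them, stable distal peaks lay near Mir5135, Mir5619, Mir5620, Mir6367, Mir6546, Mir6976, Mir7671 and Mir8104. miR-142 is a miRNA of blood cells, miR-21a and miR-22 are broadly expressed, and the miR-17 cluster is known for roles in cell proliferation.
mmu-miR-142a-5p: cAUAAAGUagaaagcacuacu
mmu-miR-142a-3p: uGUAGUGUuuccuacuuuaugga
mmu-miR-21a-5p: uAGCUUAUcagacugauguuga
mmu-miR-22-3p: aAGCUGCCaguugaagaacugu
mmu-miR-17-5p: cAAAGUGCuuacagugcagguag
mmu-miR-20a-5p: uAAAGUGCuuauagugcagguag
mmu-miR-18a-5p: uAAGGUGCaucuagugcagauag
mmu-miR-19a-3p: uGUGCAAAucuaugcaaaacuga
mmu-miR-19b-3p: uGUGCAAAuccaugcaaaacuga
mmu-miR-92a-3p: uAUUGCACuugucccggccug

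Within the cluster, miR-17-5p and miR-20a-5p share a seed, and so do miR-19a-3p and miR-19b-3p. The cluster had 1 stable peak, chr14:115041964-115042496, with its summit 1571 bp upstream of the centre of the Mir17 hairpin and folds of 5.28 (18 tags) after R848 and 4.46 (9 tags) untreated. Its neighbour upstream, with 6.25 (21 tags) after R848 and 3.13 (6 tags) untreated, has a ratio of 2.00 and so falls just outside the rule. Mir142 had 2 stable peaks, at chr11:87755416-87755730 with 4.65 (23 tags) and 2.88 (7 tags), and at chr11:87756403-87756858 with 4.23 (20 tags) and 3.15 (8 tags), after R848 and untreated. The second reaches to 6 bp from the Mir142 hairpin. Mir21a had 1, inside Vmp1 and 2945 bp upstream of the hairpin's centre (chr11:86586782-86587281), with 6.29 (20 tags) after R848 and 4.06 (7 tags) untreated. Mir22 had 1, on the Mir22hg start printed above and 2388 bp upstream. The counting interval of the ratio held 1 at each of these 5 peaks, and the ratios ran from 1.10 to 1.62, beside the median of 1.25 over all stable distal peaks.

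**Figure D5:**
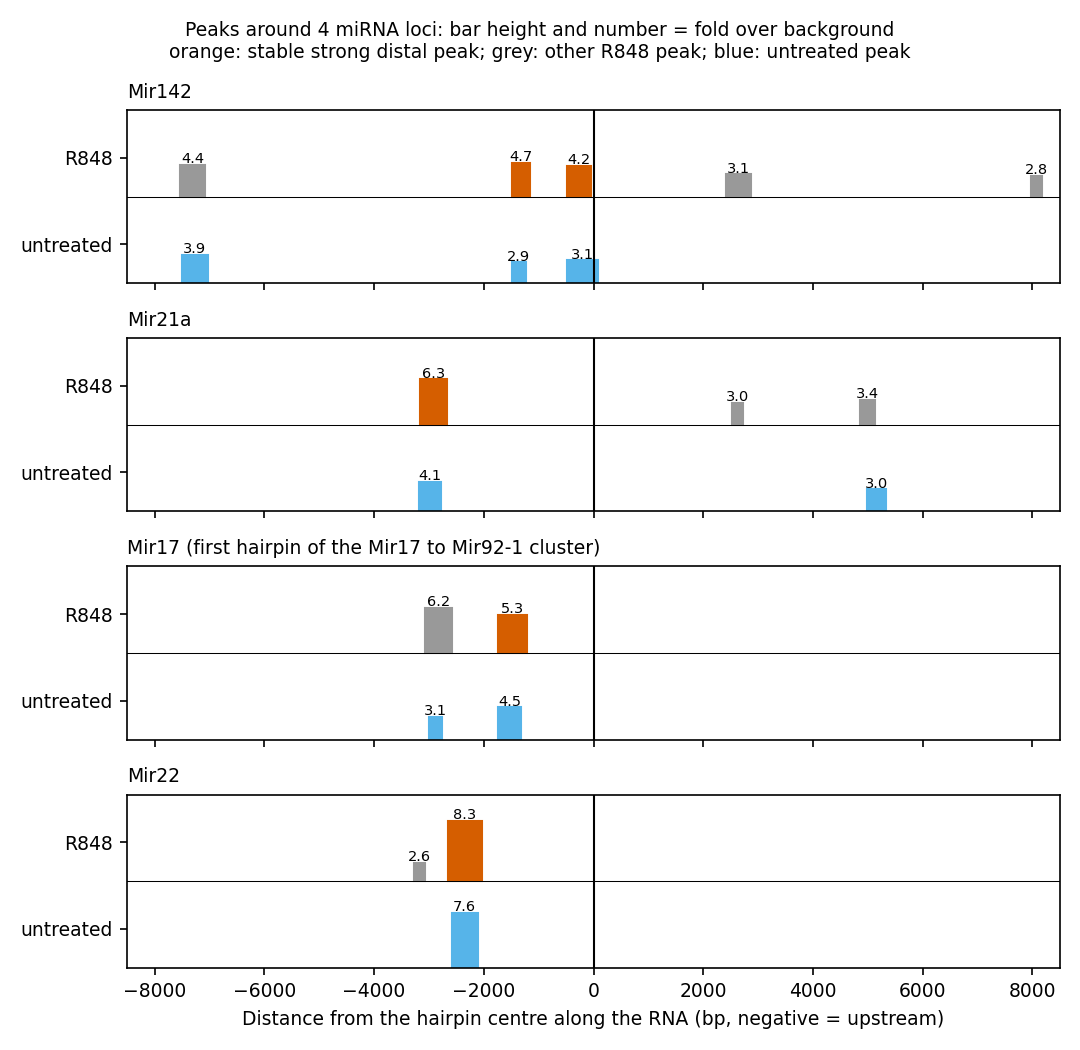
Peaks of the R848 list (upper row) and of the untreated list (lower row) around the Mir142, Mir21a, Mir17 and Mir22 hairpins, by distance along the RNA in bp, with bar height and number giving the fold over background. Stable distal peaks (orange) lay upstream of each hairpin shown, from 204 to 2945 bp at their summits. The loci were chosen, and near Mir6367, Mir6546 and Mir142b (on the strand opposite Mir142), which are not drawn, the summits lay downstream.

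Peaks lay close to each bound of the rule on both sides. At the bound on q, the peaks near Adora1 and Dlx2 were just inside and those near Klf13 and Ing2 just outside, with −log10 q of 5.02, 5.02, 4.99 and 4.99. At the bound on the ratio, Mthfd2 (1.99) and Kat6b (just under 2.00) were inside, and Gpc5 and Adipor2 (both 2.00) outside. At 1 kb, Gm30990 (1013 bp) and Cep70 (1020 bp) were inside, and Gm40367 (996 bp) and Tsga10 (1000 bp) outside. At 100 kb, the summits near Ripor2 (98431 bp) and Gm8882 (99639 bp) were inside, and those near Snx29 (100905 bp) and Esp38 (102127 bp) outside.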

How the data were processed

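ATAC-seq of wild-type mouse BMDMs gave 1 R848 and 1 untreated peak list. Reads were handled with bcl2fastq 2.19, Bowtie2 2.2.6 and MACS2 2.2.7.1 on mm10, per the submitters' processing notes, which give no settings; they state no read filter and no Tn5 shift. The deposited fold is the summit height over local background, each summit has a deposited −log10 p-value and −log10 q-value, and the deposited score was not used. Because the fold is (tags + 1)/(background + 1) and p a Poisson tail, tags and background were solved for 100% of peaks (tolerance 0.1%).

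Overlaps, assignment to the nearest protein-coding gene end and counts were made with pandas 2.3.3, numpy 2.4.6 and scipy 1.17.1 (Python 3.11.15), tested on simulated data and against bedtools 2.31.1. Genes, 300-base start windows and miRNAs are from RefSeq (GRCm38.p6). Shares carry Wilson intervals. Ratio intervals are exact binomial (Clopper-Pearson) intervals of the tags with the backgrounds held fixed. The planned motif scan of the peaks needed a genome and was replaced by one of the start windows. The rule, gene lists and tests were chosen with earlier results of these data known. Named genes are the 12 with most peaks, those of the 12 highest R848 and 6 highest untreated folds, list genes with 3 or more peaks or the most in their list, 12 fixed genes, those at each bound, and the 3 largest stretches; other named genes and list members were chosen after their values were seen. Coordinates are 1-based. A few genes that this rule or the lists name are not reported here.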

Additional observations from a re-analysis of the deposited data

How the results depend on the processing

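No paired analysis was possible because each condition has 1 library. Of 50 alternatives tried on the counts, shares and medians, 36 stayed within 1.5 times the count or within counting error and 14 moved. At a −log10 q of at least 10, 529 peaks (against 1221) at 489 genes (against 1099) met the rule, 38 (against 116) lay in stretches, 86.0% (against 66.3%) of strong distal peaks overlapped an untreated one, summits lay 41 bp apart (against 52) and 25.1% (against 21.0%) were on a start window. Requiring overlap of at least 50% of both peaks gave 53.6% shared and 46 bp. With no gene end within 5 kb, 51.2% (against 56.3%) lay inside genes, 64.1% were shared, 71 lay in stretches and 14.3% were on a start window. A ratio below 1.5 gave 44 bp and 18.6%. Leaving out peaks of high background, and the same settings for the start window share, were chosen after seeing the data. The cause of these shifts was not tested. Depth limits single peaks: 884 of 1221 ratios have counting intervals that reach 2.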

Other observations

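The rule covers chromosomes 1 to 19. On the X chromosome, 15 of 32 strong distal R848 peaks met the rest of the rule, 3 of them with a high local background in both lists. On the Y chromosome, 11 of 11 did, 7 of them with a high local background. On chromosomes 1 to 19, 59.4% of strong distal peaks within reach of a gene were stable. The lists held 820 X and 184 Y peaks of 37725 after R848, against 4556 and 3763 of 77060 in untreated cells. The sex of the animals is not given and each condition has 1 library, so what lies behind these counts was not tested.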
